A study of Arabidopsis thaliana with 6 samples.

Results

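The transcripts of 10 enzymes that make or break down abscisic acid (ABA) were examined in the RNA-seq data of wild-type, hda19 and hdip1/2/3 plants. They were taken by gene identifier, out of 32548 genes in the deposited values: AT5G67030 (ABA1), AT1G52340 (ABA2), AT1G16540 (ABA3), AT2G27150 (AAO3), AT3G14440 (NCED3), AT1G30100 (NCED5), AT1G78390 (NCED9), AT4G19230 (CYP707A1), AT2G29090 (CYP707A2) and AT5G45340 (CYP707A3). HDA19 is a histone deacetylase, an enzyme that removes acetyl groups from histones, and HDIP1, HDIP2 and HDIP3 are homologous proteins that bind it. The comparison asks whether the enzymes that set the amount of ABA differed in transcript level between the mutants and the wild type. Wild-type plants were Col-0. The hda19 mutant carried a T-DNA insertion (SALK_139445), and the hdip1/2/3 triple mutant was built by combining CRISPR-Cas9 mutations of the 3 HDIP genes, both in Col-0. Whether more than 1 line of a mutant was used is not given in the labels. All plants were 20 days old, were grown on medium plates and soil and labelled as seedlings, and the labels name no treatment. How many plants made up a library is not given in the sources used here. There were 2 libraries per genotype, described in the methods as independent biological replicates, and P values measure only the spread between these libraries.

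ABA is a hormone of drought, salt and seed dormancy, made from carotenoids. In plastids, the zeaxanthin epoxidase ABA1 makes the epoxidised xanthophylls, and the 9-cis-epoxycarotenoid dioxygenases NCED3, NCED5 and NCED9 cleave them to xanthoxin, which is held to be the step that limits the rate. In the cytosol, the dehydrogenase ABA2 turns xanthoxin into abscisic aldehyde and the aldehyde oxidase AAO3 oxidises this to ABA, with a molybdenum cofactor that the sulfurase ABA3 activates. The 8′-hydroxylases CYP707A1, CYP707A2 and CYP707A3 start its breakdown to phaseic acid. Among them, NCED3 is known as the drought-induced enzyme of leaves, NCED9 as an enzyme of seeds, and CYP707A2 as the hydroxylase of imbibed seeds.

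The deposited values are read counts per gene that the authors had adjusted to a common library size (adjusted counts). Undoing that adjustment gave whole reads for all 195288 values, and the libraries held between 43906641 and 48407739 reads on genes. Leaf marker transcripts summed to between 1427000 and 2216000 adjusted counts. Those of root summed to 23.1 at most, with 1 of 4 listed at 0 in every library, and those of seed to 6.15 at most, with 2 of 4 at 0, while the 4 flower markers summed to between 93.6 and 199.2. HDA19 had 4298 and 4416 adjusted counts in the wild type, against 2832 and 4561 in hda19 and 4893 and 5206 in hdip1/2/3, and the means of HDIP1, HDIP2 and HDIP3 in hdip1/2/3 were not below those of the wild type. Since a disrupted gene can still be transcribed, the genotype labels could not be checked by these levels.

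No member passed the adjusted test in any comparison. The test was limma-trend on log2(adjusted count + 1), fitted to the 6 libraries together, and a gene passed if its P value, adjusted by the Benjamini-Hochberg method, was under 0.05. By this test, 0 of 10 members passed in hda19, where 2.84% of the 23685 tested genes did (510 rose and 163 fell). The hdip1/2/3 comparison had 0 of 10 passing against 7.17% of all tested genes, of which 1031 rose and 668 fell. Between the mutants, 0 of 10 passed against 0% of all tested genes, and limma-voom likewise passed 0 genes there. A gene is termed called where its log2 fold change was beyond 1 and its unadjusted P value under 0.05, the limits given in the study's methods. In hda19, 1 of 10 members was called (NCED5; background 6.74%), in hdip1/2/3 0 of 10 (8.99%), and between the mutants 1 of 10 (ABA3; 3.63%). An unadjusted P value under 0.05 alone was reached by 1 member in hda19 (NCED5; background 17.6%), by 1 in hdip1/2/3 (AAO3; 30.6%) and by 2 between the mutants (ABA3 and AAO3; 21.9%). A second tool, limma-voom on the recovered reads, also passed 0 members, and its unadjusted P values under 0.05 fell to NCED3 in hda19, to AAO3 and ABA1 in hdip1/2/3, and to ABA3 and AAO3 between the mutants.

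The libraries of hda19 and of the wild type did not overlap for 4 members, 1 higher and 3 lower in hda19, against 47.8% of all tested genes. Those of hdip1/2/3 and the wild type did not overlap for 7 members, 4 higher and 3 lower, against 62.1%. In both, NCED9 is among the 3 lower, although it had 0 reads in 1 wild-type library too. Between the mutants 6 members did not overlap, 2 higher and 4 lower in hdip1/2/3, against 60.1%. All 10 members had entered the test because their mean reached 1 adjusted count in at least 1 genotype, NCED9 through the wild type alone. Over the other 9 members, 6 were higher and 3 lower in hda19 with a median log2 fold change of 0.12, and 4 were higher and 5 lower in hdip1/2/3 with a median of -0.06. Over all tested genes, the median was 0.00 in both. The wild-type libraries are shared by both comparisons, whose values are therefore set side by side and not counted as separate evidence. In such bulk samples, fewer cells of a type cannot be told apart from less RNA per cell.

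**Figure D1:**
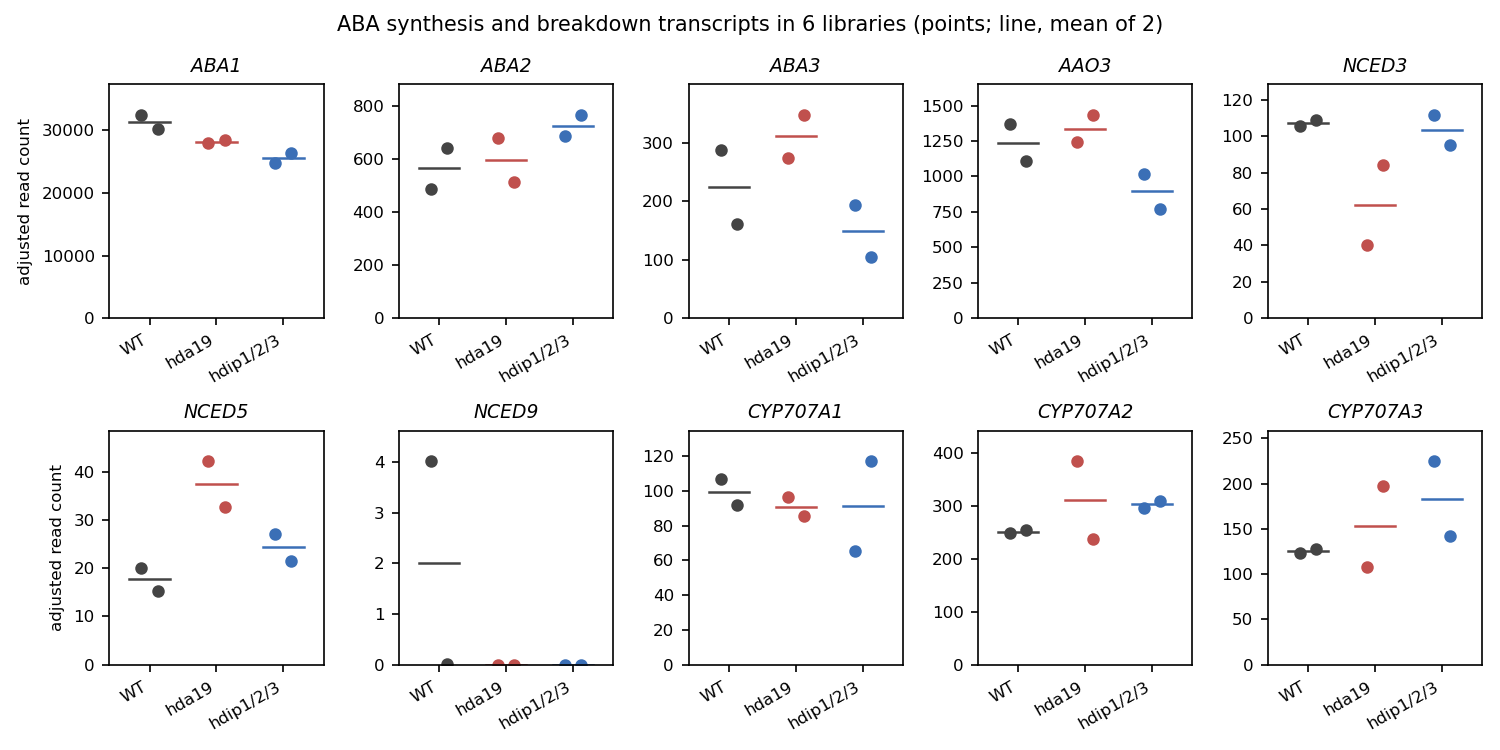
Adjusted read counts (vertical axes, each from 0) of the 10 members in the 6 libraries. Points are libraries and lines are means of 2; the ABA1 points of hdip1/2/3 (24817 and 26450) lie below those of the wild type (32482 and 30200), whereas the NCED3 points of hda19 (40.2 and 84.1) lie apart from each other.

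The members differed widely in level per kilobase of transcript. In the wild type, ABA1 had a mean of 12090 adjusted counts per kb, more than 98.5% of the tested genes. ABA2 followed at 476, AAO3 at 240 and CYP707A2 at 125 adjusted counts per kb. ABA3 (76.8), CYP707A3 (61.5), CYP707A1 (47.0) and NCED3 (39.4) followed, each above between 27.2% and 34.0% of the tested genes. NCED5 stood at 8.58 per kb and NCED9 at 0.927. In this order, neighbours did not overlap between their wild-type libraries, with the exception of ABA3 (98.4 and 55.2) and CYP707A3 (60.6 and 62.4). In hda19 the order was the same, but NCED3 (14.7 and 30.8 per kb) overlapped NCED5 (20.5 and 15.9 per kb), as CYP707A2 overlapped ABA3 and ABA3 overlapped CYP707A3. The hdip1/2/3 libraries had CYP707A3 (110 and 69.4 per kb) above ABA3 (66.2 and 35.9 per kb), the reverse of the wild-type order, while AAO3 overlapped CYP707A2, and CYP707A1 overlapped both ABA3 and NCED3.

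The NCED genes cleave the carotenoid precursor. NCED3 (chromosome 3, 4831286 to 4834015, minus strand) and NCED5 (chromosome 1, 10571310 to 10573365, plus strand) each consist of 1 exon in TAIR10.1 as annotated by RefSeq, the source of all positions here. Their coding sequences were 69.8% identical, and the longest stretch that their transcripts share is shown because reads lying within it could not be told apart. It is 38 nt long, with no base in capitals since none differs:

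NCED3 and NCED5: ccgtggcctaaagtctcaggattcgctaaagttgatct

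Between NCED3 and NCED9 the longest shared stretch was 42 nt and between NCED5 and NCED9 29 nt. These stretches are shorter than the reads described in the labels and in the methods, and only uniquely mapped reads had been counted.

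NCED5 was higher in both hda19 libraries. It had 20.1 and 15.2 adjusted counts in the wild type, against 42.1 and 32.8 in hda19 and 27.1 and 21.6 in hdip1/2/3. Both hda19 libraries and both hdip1/2/3 libraries lay above both wild-type libraries, and the hda19 libraries were also above those of hdip1/2/3. In hda19 the log2 fold change was 1.05 (2.06-fold; standard error 0.41; 95% interval 0.10 to 1.99) with an adjusted P value of 0.237 from limma-trend. With limma-voom the log2 fold change was 1.06 but the call was lost. It was 0.85 without wild-type replicate 2 and 0.87 without hda19 replicate 1, and then not called, and at most 1.24 without any other library. For hdip1/2/3 it was 0.45 (interval -0.50 to 1.39) with an adjusted P value of 0.492. These values rest on few reads, 35 in the 2 wild-type libraries (exact Poisson 95% interval 24.4 to 48.7), 78 in hda19 (61.7 to 97.3) and 44 in hdip1/2/3 (32.0 to 59.1).

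NCED3 was lower in hda19, but its 2 libraries differed. It had 105.6 and 109.2 adjusted counts in the wild type, against 40.2 and 84.1 in hda19 and 111.7 and 95.1 in hdip1/2/3. Both hda19 libraries lay below all 4 others, whereas those of hdip1/2/3 overlapped the wild type. For hda19 the log2 fold change was -0.87 (standard error 0.38; interval -1.76 to 0.01; adjusted P value 0.290, limma-trend). Without hda19 replicate 1 it was -0.35, and without hda19 replicate 2 it was -1.39, past the limits for a call. In hdip1/2/3 it was -0.06 (interval -0.94 to 0.83), and the 2 mutants differed by 0.81 (interval -0.07 to 1.70; adjusted P value 0.252).

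The balance of the 2 enzymes' reads differed by library. NCED5 made up 20 of 125 NCED3 and NCED5 reads in wild-type replicate 1 (16.0%; Wilson 95% interval 10.6 to 23.4) and 15 of 123 in replicate 2 (12.2%; 7.53 to 19.1). In hda19 its share was 41 of 80 reads in replicate 1 (51.2%; 40.5 to 61.9) and 37 of 131 in replicate 2 (28.2%; 21.2 to 36.5). The hdip1/2/3 shares were 25 of 128 reads (19.5%; 13.6 to 27.2) and 19 of 103 reads (18.4%; 12.1 to 27.0). The shares of hda19 lay above the other 4 libraries and those of hdip1/2/3 between hda19 and the wild type, although the intervals of hdip1/2/3 overlapped those of the wild type. Of the hda19 libraries, replicate 1 had an interval clear of all others, whereas that of replicate 2 overlapped the intervals of hdip1/2/3 and of wild-type replicate 1. The intervals cover counting error only, and the share was formed after the values had been seen.

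**Figure D2:**
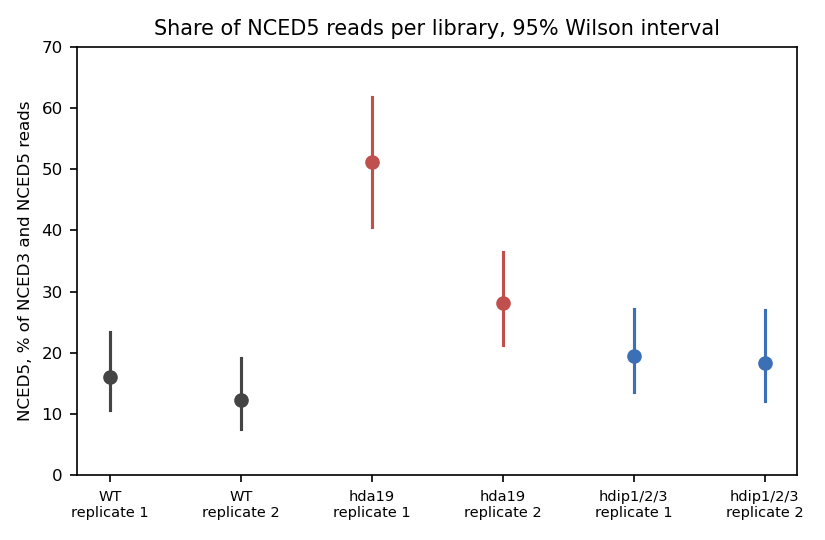
Share of NCED5 among the reads of NCED3 and NCED5 (vertical axis, percent) in each of the 6 libraries, with 95% Wilson intervals as bars. The hda19 libraries stand at 51.2% and 28.2%, and the other 4 between 12.2% and 19.5%.

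NCED9 (chromosome 1, 29490705 to 29492875, minus strand) was detected in 1 library. It had 4 reads in wild-type replicate 1 and 0 in the other 5 libraries. A count of 0 allows up to 3 reads in a library, so no fold change is given and no difference was detectable at this depth.

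The 250 bases before the start of a gene were searched on both strands for ACGTG, the core of the ABA-responsive element, and for the G-box CACGTG, which contains that core. ACGTG occurred before 5 of 10 members (ABA1, ABA3, NCED9, CYP707A1 and CYP707A3) and before 22.9% of 27443 protein-coding genes. The G-box occurred before 4 of 10 (ABA3, NCED9, CYP707A1 and CYP707A3), against 6.49%. The windows of NCED3 and NCED5, the pair with the largest differences from the wild type in hda19, and of CYP707A1 and CYP707A3, the closest relatives among the members, are printed 5′ to 3′ on the gene's own strand from TAIR10.1, with ACGTG on either strand in capitals. NCED3 and NCED5 hold neither motif, and each CYP707A window holds 1 G-box. A match is a description of the letters and not of a bound site.

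NCED3 (chr3:4834016-4834265, minus strand): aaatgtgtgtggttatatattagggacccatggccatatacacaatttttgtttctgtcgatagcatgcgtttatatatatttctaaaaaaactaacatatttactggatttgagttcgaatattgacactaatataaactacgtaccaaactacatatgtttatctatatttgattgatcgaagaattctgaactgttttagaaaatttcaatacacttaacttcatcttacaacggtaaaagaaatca

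NCED5 (chr1:10571060-10571309, plus strand): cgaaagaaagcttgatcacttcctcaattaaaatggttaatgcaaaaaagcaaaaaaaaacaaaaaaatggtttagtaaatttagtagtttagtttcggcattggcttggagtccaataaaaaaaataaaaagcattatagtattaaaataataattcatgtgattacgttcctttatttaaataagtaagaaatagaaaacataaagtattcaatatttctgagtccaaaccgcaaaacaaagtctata

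CYP707A1 (chr4:10521009-10521258, plus strand): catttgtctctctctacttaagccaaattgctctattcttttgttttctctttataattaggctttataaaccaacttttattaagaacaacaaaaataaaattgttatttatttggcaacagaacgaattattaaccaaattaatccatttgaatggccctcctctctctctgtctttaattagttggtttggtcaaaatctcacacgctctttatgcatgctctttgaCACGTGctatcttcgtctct

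CYP707A3 (chr5:18371022-18371271, minus strand): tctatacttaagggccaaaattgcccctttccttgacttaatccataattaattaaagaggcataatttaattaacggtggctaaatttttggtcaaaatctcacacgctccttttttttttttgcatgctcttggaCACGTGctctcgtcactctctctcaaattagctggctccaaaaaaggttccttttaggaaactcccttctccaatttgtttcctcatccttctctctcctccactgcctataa

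By a fixed rule, the 2 genes whose profiles over the 6 libraries were nearest to that of NCED5 were sought among 19547 genes with a mean of at least 10. They were NF-YA5 (AT1G54160, a subunit of a CCAAT-binding factor) at a root mean square distance of 0.0447 on the log2 scale and JAZ5 (AT1G17380, a repressor of jasmonate responses) at 0.0953. NF-YA5 had 41.2 and 30.4 adjusted counts in the wild type, against 78.1 and 63.9 in hda19 and 50.9 and 40.8 in hdip1/2/3. With 6 libraries, this is a description of likeness and not a test.

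ABA1 was lowest in hdip1/2/3. The gene (chromosome 5, 26753469 to 26757402, minus strand) had 32482 and 30200 adjusted counts in the wild type, against 27960 and 28465 in hda19 and 24817 and 26450 in hdip1/2/3. No 2 of the 3 genotypes overlapped. The log2 fold change was -0.15 in hda19 (interval -0.46 to 0.16; adjusted P value 0.651, limma-trend) and -0.29 in hdip1/2/3 (interval -0.60 to 0.02; adjusted P value 0.184). After a trend of each library with transcript length had been removed, the value in hdip1/2/3 was -0.04.

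ABA2, the dehydrogenase (chromosome 1, 19489794 to 19491650, minus strand), had 485.9 and 642.2 adjusted counts in the wild type, against 678.7 and 513.7 in hda19 and 685.4 and 765.7 in hdip1/2/3. Both hdip1/2/3 libraries were above all 4 others, and hda19 overlapped the wild type. The log2 fold change was 0.08 in hda19 (interval -0.39 to 0.55) and 0.37 in hdip1/2/3 (interval -0.10 to 0.85; adjusted P value 0.251, limma-trend). The latter was 0.15 with the trend with transcript length removed, 0.17 without wild-type replicate 1 and 0.58 without wild-type replicate 2. ABA2 overlaps 2 genes on the opposite strand, AT1G07803 and AT1G52330, and whether reads were counted by strand is not given in the sources used here. AT1G07803 had 0 reads in all 6 libraries and AT1G52330 between 2 and 12.

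ABA3 and AAO3 act together, the first activating the cofactor of the second, and both were lower in hdip1/2/3 than in hda19. ABA3 (chromosome 1, 5659370 to 5665488, plus strand) had 286.7 and 160.9 adjusted counts in the wild type, against 273.6 and 347.1 in hda19 and 192.8 and 104.6 in hdip1/2/3. Wild-type libraries overlapped both mutants, but the mutants did not overlap each other. Between the mutants the log2 difference was -1.11 (0.463-fold; standard error 0.37; interval -1.98 to -0.24; adjusted P value 0.189, limma-trend), and it ranged from -1.55 to -0.67 when a single library was left out. The call was lost without hdip1/2/3 replicate 2, hda19 replicate 1 or either wild-type library, and without hda19 replicate 2 NCED3 was called in its place. Against the wild type it was 0.52 in hda19 (interval -0.35 to 1.39) and -0.59 in hdip1/2/3 (interval -1.46 to 0.28). Both values depended on single libraries. In hda19 it was 0.10 without wild-type replicate 2 and 0.93 without wild-type replicate 1. In hdip1/2/3 it was -0.18 without wild-type replicate 1, -1.01 without wild-type replicate 2, -1.03 without hdip1/2/3 replicate 1 and -0.15 without hdip1/2/3 replicate 2.

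AAO3 (chromosome 2, 11601727 to 11608450, plus strand) had 1371 and 1105 adjusted counts in the wild type, against 1240 and 1434 in hda19 and 1019 and 768.5 in hdip1/2/3. Both hdip1/2/3 libraries were below all 4 others, while hda19 overlapped the wild type. The log2 fold change in hdip1/2/3 was -0.48 (standard error 0.18; interval -0.90 to -0.05; adjusted P value 0.130, limma-trend), and from hda19 it differed by -0.59 (interval -1.02 to -0.16; adjusted P value 0.188). AAO3 overlaps AT2G27160 on the opposite strand, which had 0 reads in all 6 libraries.

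The libraries also differed in a trend with transcript length, and its part in these differences was not tested. ABA3 has a transcript of 2912 nt, longer than 89.0% of the tested genes, and AAO3 one of 5158 nt, longer than 98.9%. Among the longest of 10 equal groups of genes by transcript length (median 3617 nt), the median log2 difference from a gene's mean over the 6 libraries was 0.40 in wild-type replicate 1 and 0.01 in replicate 2. For hda19 it was 0.07 and 0.28 and for hdip1/2/3 -0.17 and -0.55. AAO3 itself differed from its mean by 0.28 and -0.04 in wild-type libraries, by 0.13 and 0.34 in those of hda19 and by -0.15 and -0.56 in those of hdip1/2/3, with the replicates of each genotype in the same order as for the long genes. ABA3 differed from its mean by 0.44 and -0.39 in wild-type libraries, by 0.37 and 0.71 in hda19 and by -0.13 and -1.01 in hdip1/2/3. With the length trend removed, AAO3 turned to 0.31 in hdip1/2/3 against the wild type (adjusted P value 0.13, limma-trend) and to 0.16 between the mutants. ABA3 then differed by -0.77 between the mutants (adjusted P value 0.23, limma-trend), within the fold limit, and was no longer called. Its unadjusted P value there was 0.019 (limma-trend) both before and after removal. Against the wild type, ABA3 differed by -0.25 in hdip1/2/3. NCED5 in hda19 was hardly moved, at 1.04.

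**Figure D3:**
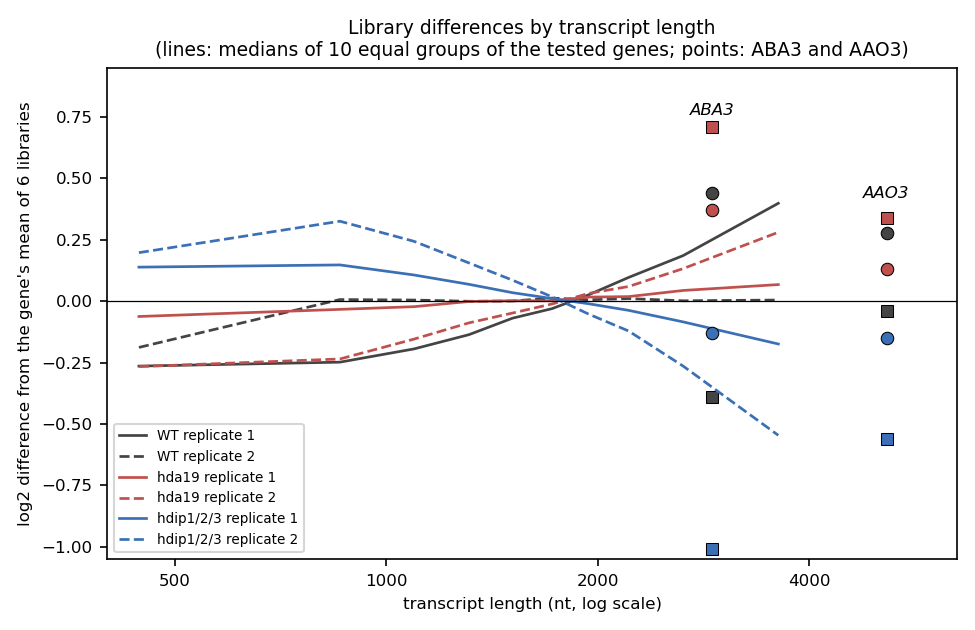
Log2 difference of each library from the gene's mean over 6 libraries (vertical axis) against transcript length in nt (log scale); lines join medians of 10 equal groups of the tested genes, points are ABA3 and AAO3, circles are replicate 1 and squares replicate 2. In the longest group the lines end between -0.55 (hdip1/2/3 replicate 2) and 0.40 (wild-type replicate 1). The AAO3 points run from -0.56 to 0.34 and the ABA3 points from -1.01 to 0.71.

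ABA synthesis enzymes such as AAO3 are also known from guard cells and the vasculature. The 4 guard cell markers summed to 2941 and 2495 adjusted counts in the wild type, against 2188 and 2545 in hda19 and 1942 and 1567 in hdip1/2/3, with none at 0. All 4 were lower in hdip1/2/3 (median log2 fold change -0.64) and in hda19 (median -0.20), none passing the adjusted test. Of all tested genes, 49.6% were lower in hdip1/2/3 and 49.8% in hda19. These marker values are given with the trend with transcript length left in. The 2 companion cell markers summed to between 17330 and 23050 in the 6 libraries. The part of cell composition in the AAO3 and ABA3 values was not tested.

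The relatives of AAO3 were also compared. AAO1, an aldehyde oxidase best known for indole-3-acetaldehyde, had 640.8 and 455.2 adjusted counts in the wild type, against 931.9 and 1601 in hda19 and 729.3 and 435.6 in hdip1/2/3. Both hda19 libraries were above the other 4, with a log2 fold change of 1.18 (standard error 0.33; adjusted P value 0.113, limma-trend). AAO2 differed by 0.32 in hda19 and -0.21 in hdip1/2/3 on the log2 scale, with libraries that overlapped the wild type in both. AAO3 shared stretches of at most 28 nt with these relatives and with AAO4, which had at most 29.8 adjusted counts in a library.

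Of the 3 CYP707A hydroxylases, none passed the test or was called in any comparison. CYP707A2 (chromosome 2, 12494826 to 12499723, minus strand) was the most abundant per kb. It had 247.5 and 253.9 adjusted counts in the wild type, against 383.5 and 236.9 in hda19 and 295.4 and 309.5 in hdip1/2/3, with a log2 fold change of 0.27 in both mutants (intervals -0.31 to 0.84 and -0.31 to 0.85). The hda19 replicates lay on both sides of the wild type, whereas both hdip1/2/3 libraries were above it.

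CYP707A3 (chromosome 5, 18368532 to 18371021, minus strand) had 123.7 and 127.4 adjusted counts in the wild type, against 108.1 and 197.1 in hda19 and 224.4 and 141.7 in hdip1/2/3. Libraries of hda19 lay on both sides of the wild type and both hdip1/2/3 libraries above it, 1 of them far above the other. The log2 fold change in hdip1/2/3 was 0.50 (interval -0.32 to 1.33; adjusted P value 0.370, limma-trend). CYP707A1 (chromosome 4, 10521259 to 10523961, plus strand) had 106.6 and 92.1 adjusted counts in the wild type, against 96.6 and 85.3 in hda19 and 65.5 and 116.9 in hdip1/2/3, and overlapped in all 3 comparisons. Its log2 fold change was -0.12 in hda19 (interval -0.92 to 0.67) and -0.18 in hdip1/2/3 (interval -0.97 to 0.62).

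Of the pairs of members compared, CYP707A1 and CYP707A3 were the most alike, with coding sequences 82.9% identical. No stretch that their transcripts share is as long as the reads described in the labels or in the methods. Their longest shared stretch of 44 nt crosses an exon junction in each gene and is printed to show its extent:

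CYP707A1 and CYP707A3: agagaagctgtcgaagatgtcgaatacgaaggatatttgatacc

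The fourth hydroxylase gene, CYP707A4, stayed between 96.7 and 115 adjusted counts in the 6 libraries. Within the 3 members, CYP707A2 took between 45.7% and 65.2% of the reads in each library, CYP707A3 between 18.4% and 38.4%, and CYP707A1 between 11.1% and 22.3%.

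Set side by side, breakdown transcripts were more abundant than those of the cleavage step in every library. The summed level of CYP707A1, CYP707A2 and CYP707A3 was 235 and 233 adjusted counts per kb in the wild type, against 290 and 255 in hda19 and 289 and 279 in hdip1/2/3. For NCED3, NCED5 and NCED9 together it was 50.3 and 47.4 per kb in the wild type, against 35.2 and 46.7 in hda19 and 54.1 and 45.3 in hdip1/2/3. Dividing the NCED by the CYP707A sum gave 0.214 and 0.204 in the wild type, against 0.121 and 0.183 in hda19 and 0.187 and 0.162 in hdip1/2/3. All 4 mutant libraries had a higher CYP707A sum and a lower ratio than both wild-type libraries. Values of hdip1/2/3 changed when the trend with transcript length was removed. With that trend removed, its log2 fold changes were 0.23 for NCED3 and 0.53 for NCED5, beside -0.07 for CYP707A1, 0.34 for CYP707A2 and 0.58 for CYP707A3. The sums and the ratio were not formed again without the trend, and no difference is read from the ratio in either mutant. These sums were formed after the values had been seen, carry no test, and say nothing of enzyme activity or of the amount of ABA.

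**Figure D4:**
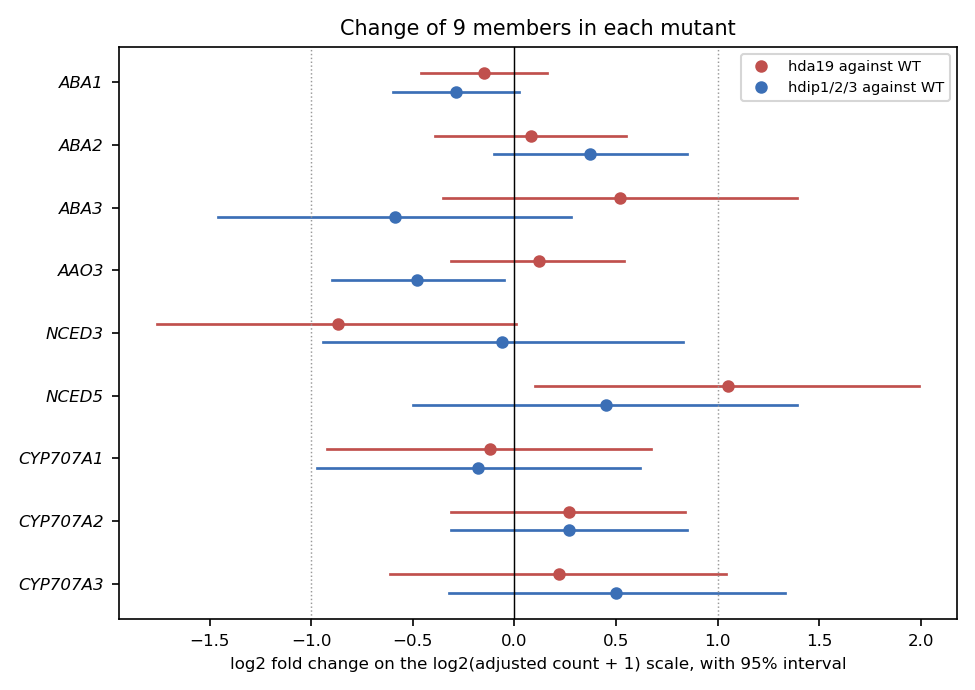
Log2 fold change against the wild type (horizontal axis, log2(adjusted count + 1) scale) of 9 members in hda19 and hdip1/2/3; points are estimates, bars 95% intervals, dotted lines the limits of -1 and 1, and NCED9 is left out for want of reads. NCED5 in hda19 (1.05, interval 0.10 to 1.99) and AAO3 in hdip1/2/3 (-0.48, interval -0.90 to -0.05) have intervals that leave out 0, before adjustment.

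The supply of the pathway was described with 13 genes of carotenoid and xanthophyll synthesis. In hda19, 13 of 13 were lower, at a median log2 fold change of -0.33, whereas 49.8% of all tested genes were lower. Among them, 2 fell: BCH2 (-0.80; adjusted P value 0.0262, limma-trend) and BCH1 (-0.70; adjusted P value 0.0498), the beta-carotene hydroxylases that make zeaxanthin, the substrate of ABA1. BCH2 had 3008 and 2905 adjusted counts in the wild type, against 1862 and 1552 in hda19 and 1870 and 2069 in hdip1/2/3. Both mutants lay below the wild type in every library. In hdip1/2/3, 11 of 13 were lower with a median of -0.28, whereas 49.6% of all tested genes were lower. Of the 13, 1 fell, BCH2 (-0.59; adjusted P value 0.0436, limma-trend). The list medians in both mutants are given with the trend with transcript length left in. BCH1 had 6841 and 6174 adjusted counts in the wild type, against 4407 and 3628 in hda19 and 4634 and 5433 in hdip1/2/3, where it differed by -0.37 (adjusted P value 0.130). In hda19, BCH1 passed under 5 of 16 alternatives, and was lost with median-of-ratios scaling, without a filter and with a pseudocount of 0.1. In hdip1/2/3, BCH2 passed under 8 of 16 and was lost with a pseudocount of 0.1.

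The 6 genes of molybdenum cofactor synthesis had medians of 0.13 in hda19 and 0.21 in hdip1/2/3. Of the 6, 1 rose in hdip1/2/3, CNX6, which encodes the large subunit of molybdopterin synthase (0.55; adjusted P value 0.0467, limma-trend), with 1145 and 1164 adjusted counts in wild-type libraries and 1593 and 1788 in those of the mutant. CNX6 passed under 6 of 16 alternatives, and was lost with median-of-ratios scaling and with a pseudocount of 0.1. Of 6 ABA transport genes, 0 passed in hda19 and ABCG31 fell in hdip1/2/3 (-1.08; adjusted P value 0.0401). ABCG31, an exporter of ABA known from the seed endosperm, had 184.1 and 180.0 adjusted counts in the wild type, against 131.6 and 135.2 in hda19 and 89.0 and 82.5 in hdip1/2/3. With the trend with transcript length removed, its log2 fold change was -0.35 and it no longer passed.

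Among 5 factors reported to act on the NCED3 gene, HAT1, a homeodomain-leucine zipper protein known to repress NCED3, rose in both mutants. It had 603.6 and 792.9 adjusted counts in the wild type, against 1411 and 1326 in hda19 and 1739 and 2034 in hdip1/2/3. All 4 mutant libraries lay above the wild type. The log2 fold change was 0.98 in hda19 (adjusted P value 0.0273, limma-trend) and 1.44 in hdip1/2/3 (adjusted P value 0.00707). NCED3 itself differed by -0.87 in hda19 and by -0.06 in hdip1/2/3, and a link between HAT1 and NCED3 levels was not tested. The other 4 (NGA1, ATAF1, ATX1 and WRKY57) did not pass in either mutant, and the medians of the 5 were 0.05 and -0.04.

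Transcripts that ABA is known to induce did not all move one way. Of 15, 2 rose in hda19: HIS1-3, a linker histone variant induced by drought (2.04; adjusted P value 0.0162, limma-trend), and HAI1, a protein phosphatase 2C (1.91; adjusted P value 0.0165). In hdip1/2/3, HIS1-3 rose (1.40; adjusted P value 0.0378) and RD29A, a cold- and drought-induced gene, fell (-1.96; adjusted P value 0.0314). HIS1-3 had 53.3 and 79.9 adjusted counts in the wild type, against 255.1 and 289.2 in hda19 and 202.8 and 148.4 in hdip1/2/3, with all 4 mutant libraries above the wild type. RD29A had 1020 and 823.3 in the wild type, against 493.6 and 357.1 in hda19 and 362.0 and 152.3 in hdip1/2/3, with all 4 below it. HAI1 had 57.3 and 62.7 in the wild type, against 227.3 and 228.6 in hda19 and 145.2 and 99.8 in hdip1/2/3. All other transcripts of the list did not pass, where 2.84% of all tested genes passed in hda19 and 7.17% in hdip1/2/3. In each mutant 10 of 15 were lower, against 49.8% and 49.6% of all tested genes, and the medians were -0.15 and -0.13. Of the list, 3 were called higher and 2 lower in hda19 (background 6.74%), and 1 higher and 1 lower in hdip1/2/3 (8.99%). The 10 relatives of the NCED, CCD, AAO and CYP707A genes (9 tested) had no gene passing in either mutant, with medians of 0.03 and -0.01 over the 7 above 3 reads in both genotypes. In hda19, 2 were called higher (NCED2 and AAO1) and 1 lower (CCD7), where 6.74% of all tested genes were called. None was called in hdip1/2/3 (8.99%). NCED2 had 5 and 2 reads in hda19 and 0 in both wild-type libraries, and NCED6 had 0 in every library. CCD7 had 14 and 7 reads in the wild type and 0 and 4 in hda19.

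**Figure D5:**
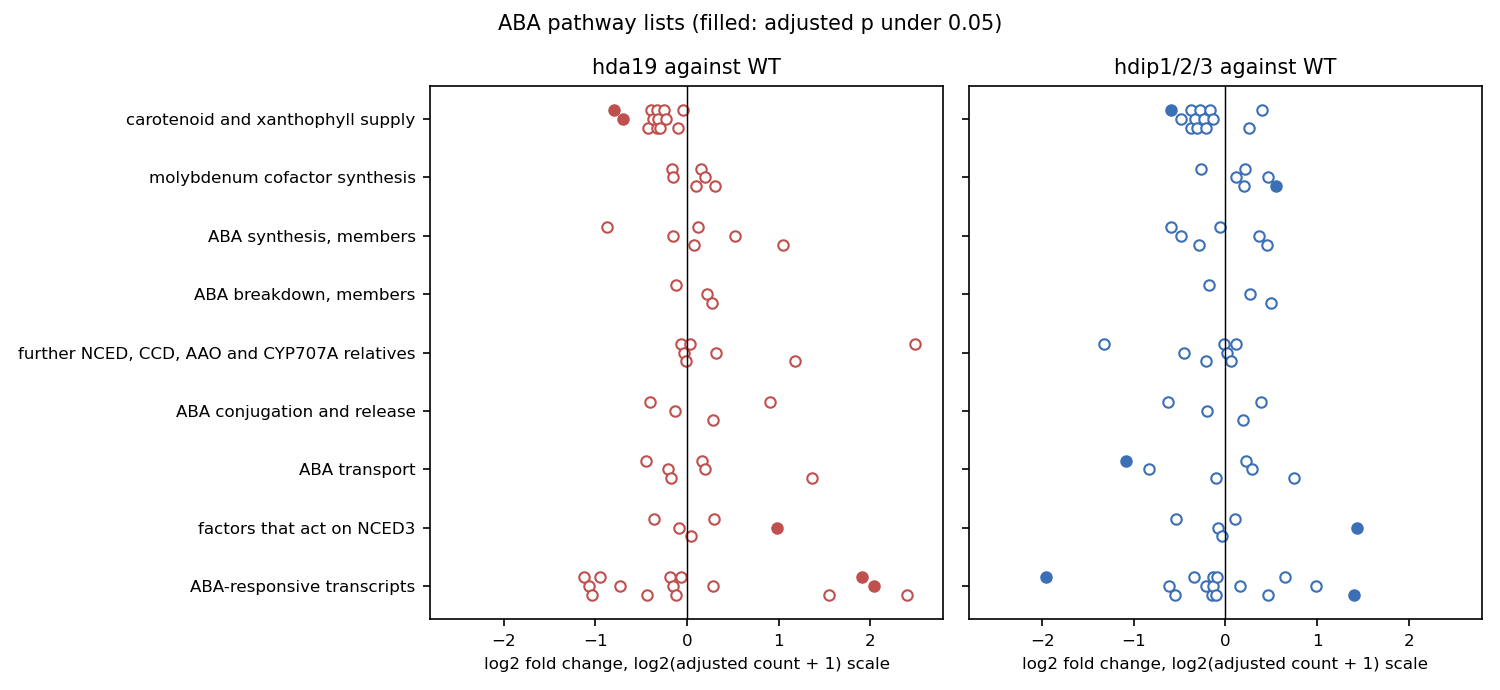
Log2 fold changes (horizontal axes, log2(adjusted count + 1) scale) of the genes in 9 ABA pathway lists in hda19 (left) and hdip1/2/3 (right) against the wild type; each point is a gene above 3 reads on average in both genotypes, filled where the adjusted P value was under 0.05. The carotenoid list lies left of 0 in 13 of 13 genes in hda19, and no member is filled in either mutant.

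The pathway genes that passed did so in the fit to 6 libraries. With any 1 library left out, or only 2 genotypes in the fit, 0 genes of the whole table passed with limma-trend against the wild type, although an unadjusted P value under 0.05 was still reached by 2777 to 7174 of them. The 8 pathway genes named as passing kept their directions in all of these fits.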

How the data were processed

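RNA was sequenced from 2 libraries each of wild-type, hda19 and hdip1/2/3 plants. The authors mapped reads with HISAT2 (TAIR10), took the unique ones for counting per gene in featureCounts, and used edgeR. The labels describe a single-end platform and the methods a paired-end one. The deposited signal is a read count per gene after scaling by the authors to 1 library size, with sizes that were not proportional to the read totals. That step is not described in the sources used here, and the values have the form of the quantile-adjusted counts of edgeR. That adjustment was inverted, rounded to whole reads and applied again, which gave back 195288 of 195288 values, and 0 value columns were left unused. The adjusted values were not raw counts, so limma-trend (limma 3.58.1, R 4.3.3) was fitted to log2(value + 1) of 23685 genes whose mean reached 1 in any genotype, with genotype as the only term and Benjamini-Hochberg adjustment over all of them. Fold changes are on that scale, which understates those of low genes. Levels per kb used the longest RefSeq transcript, and promoters, coordinates and sequences came from RefSeq TAIR10.1 with Python 3.11.15. Figures used matplotlib 3.10.9.

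All 10 members are named. Other pathway genes are named where they passed in either mutant against the wild type (at most 4 a list) or are close relatives of a member, and the 2 genes nearest in profile are named for each member called in a mutant against the wild type. AAO1, a relative, falls under this rule, whereas BG1 was chosen after its values were seen. The members and lists were chosen with earlier results of these data known. Alternatives changed the normalization, filter, pseudocount, samples fitted, replicate block, length trend, prior and tool (limma-voom on recovered reads), and left out each library in turn. They were also applied to 8 pathway genes, after their values had been seen. In data simulated for hda19 against the wild type, 2 of 50 genes changed by 0.5 on the log2 scale passed. Of those changed by 1, 30 of 50 passed, and of those changed by 2, 49 of 50. The changed genes had a mean of at least 10, all genes had a single dispersion, and no trend with transcript length was simulated. The spread of the members was not used, so these shares do not give the power for them.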

Additional observations from a re-analysis of the deposited data

Results flagged for a closer look

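Between the mutants, 2 of 10 members differed at an unadjusted P value under 0.05 (limma-trend), no larger a share than the 21.9% of all tested genes. The count is therefore not read as a result about the members. For both, every hdip1/2/3 library lay below every hda19 library, in a comparison where 60.1% of all tested genes did not overlap. For ABA3 the log2 difference of hdip1/2/3 from hda19 was -1.11, and for AAO3 it was -0.59. With limma-trend the adjusted P value was 0.19 for each. With the trend with transcript length removed, the AAO3 difference turned to 0.16, whereas that of ABA3 was -0.77.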

How the results depend on the processing

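No member passed the adjusted test under any alternative. Of 270 member fold changes under alternatives that kept the libraries of the pair, 264 kept their direction and 6 reversed. With the trend with transcript length removed, AAO3 was 0.31 and NCED3 0.23 in hdip1/2/3 against the wild type, and ABA1 was 0.11, AAO3 0.16 and CYP707A1 0.05 between the mutants. With quantile normalization, CYP707A1 was 0.02 between the mutants. The cause of these reversals was not tested.

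Genes passing against the wild type numbered 0 in either mutant when the 2 genotypes were fitted alone, 1956 in hda19 and 2597 in hdip1/2/3 with the length trend removed, and 2884 in hdip1/2/3 with a filter at a mean of 10. Members called in hda19 numbered 0 with limma-voom, and with quantile normalization the 1 called was NCED3 rather than NCED5. Between the mutants 0 were called when these were fitted alone, and with the length trend removed the 1 called was NCED3. Under quantile normalization 60.7% of called genes were higher in hda19, against 69.0%, and 42.1% in hdip1/2/3 against hda19, against 31.4%.

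Leaving out 1 library gave 0 to 0 genes passing in each mutant. Members called ranged from 0 to 2 in hda19 (2, NCED5 and NCED3, without hda19 replicate 2), from 0 to 1 in hdip1/2/3 (NCED9 without wild-type replicate 2, where 4 reads in 1 library stand against 0, which is no detectable difference) and from 0 to 1 between the mutants, where 751 to 1652 genes were called. Of 162 member fold changes, 13 reversed. The ranges in hda19 were -0.12 to 0.28 for ABA2, -0.04 to 0.27 for AAO3, -0.08 to 0.61 for CYP707A2 and -0.21 to 0.65 for CYP707A3. In hdip1/2/3 they were -0.17 to 0.06 for NCED3 and -0.59 to 0.24 for CYP707A1. Between the mutants they were -0.46 to 0.36 for CYP707A1, -0.34 to 0.35 for CYP707A2 and -0.14 to 0.72 for CYP707A3.

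Same-numbered replicates did not deviate together in every pair of genotypes. The correlation was -0.21 for the wild type and hda19, 0.38 for the wild type and hdip1/2/3, and -0.21 for the mutants, over 19548 genes. These values cannot decide whether libraries of different genotypes were made in pairs, under these numbers or others. With the replicate block, 662 genes passed in hda19 and 2068 in hdip1/2/3, 1548, 2085 and 847 genes were called in hda19, in hdip1/2/3 and between the mutants, and 1, 0 and 1 members were called. The block ended the pass of BCH1 in hda19 (adjusted P value 0.06, limma-trend) and of CNX6 in hdip1/2/3 (0.055). Depth limits NCED9 and NCED5 most, with at most 4 and 41 reads in a library.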

Other observations

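Storage and release of ABA were described with 6 genes, of which 5 were tested and none passed with limma-trend. BG1, a beta-glucosidase that frees ABA from its glucose ester in the endoplasmic reticulum, had 12929 and 16505 adjusted counts in the wild type, against 33028 and 22771 in hda19 and 12049 and 13382 in hdip1/2/3. Both hda19 libraries lay above the other 4, with a log2 fold change of 0.91 in hda19 (standard error 0.20; adjusted P value 0.0649, limma-trend) and a difference of -1.11 between hdip1/2/3 and hda19 (adjusted P value 0.188). BG2, the vacuolar counterpart, differed by -0.40 in hda19 and -0.63 in hdip1/2/3 (adjusted P values 0.268 and 0.0618). The glucosyltransferase gene UGT71B7 differed by 0.28 and 0.39 on the log2 scale, and UGT71B6 was listed at 0 in every library.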
